A study of Homo sapiens with 6 samples.

Results

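In human MUM2B cells with and without raised LACTB, 10 solute carriers that move amino acids across the plasma membrane were followed: SLC7A11, SLC7A5, SLC3A2, SLC7A1, SLC1A4, SLC1A5, SLC38A1, SLC38A2, SLC6A9 and SLC43A1. They were chosen by gene symbol, 10 of the 58735 genes in each file, and each symbol stood on a single row. The study sequenced RNA from MUM2B cells, a line given by the labels as melanoma, that stably carried an empty vector (3 libraries) or stably overexpressed LACTB (3 libraries). LACTB is a serine protease-like protein of the mitochondrial intermembrane space. Both groups carried a vector, both were grown in RPMI 1640 medium with serum, and no further agent is named. The promoter of the vector, and whether each line is a single clone, were not stated in the labels used here. Levels are FPKM, in which the fragments of a gene are divided by its exon length and by the size of the library. That length counts all annotated exons, so levels compare only roughly between genes where the transcripts in use are shorter.

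Amino acids cross the membrane through several families of carriers with overlapping substrates. The SLC7 light chains SLC7A5 and SLC7A11 are exchangers that reach the cell surface only when joined by a disulfide bond to the SLC3A2 heavy chain, also known as CD98. SLC7A5 takes up leucine and other large neutral amino acids in exchange for internal ones, and SLC7A11, known as xCT, takes up cystine in exchange for glutamate and so feeds glutathione synthesis. SLC1A5 and SLC1A4 are sodium-dependent exchangers of small neutral amino acids, SLC38A1 and SLC38A2 bring in glutamine and alanine with sodium, SLC7A1 carries arginine and lysine, SLC6A9 carries glycine, and SLC43A1 is a facilitator of large neutral amino acids that works without SLC3A2. Several of these genes are textbook targets of ATF4, the transcription factor of the amino acid response, which binds composite elements known as CAREs.

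RefSeq promoter windows (GRCh38.p14, 250 bases before to 50 after each start) were matched by symbol for 9 of the 10 transporters, all but SLC7A11, giving 16 windows because several genes have more than 1 start. The CARE core TGATGNAA, searched on both strands, was found in windows of 5 of these 9 genes, against 4.46% of 27305 genes in the whole table. Counted by window, it was found in 5 of the 16, against 3.62% of 35116 windows. The 5 stretches are shown because SLC1A4, SLC1A5 and SLC3A2 are among the transporters that rose most and SLC38A1 and SLC7A1 among those that rose least. Capitals mark the match, written in the direction of transcription, so that the SLC1A4 and SLC3A2 matches read as the reverse complement of the core.
SLC1A4: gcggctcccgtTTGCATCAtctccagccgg
SLC1A5: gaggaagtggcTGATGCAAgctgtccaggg
SLC3A2: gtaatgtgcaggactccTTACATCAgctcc
SLC38A1: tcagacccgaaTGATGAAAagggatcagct
SLC7A1: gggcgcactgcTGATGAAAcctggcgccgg
The stretches lie at chr2:64989381-64989410 (plus strand), chr19:46784893-46784922 (minus), chr11:62881719-62881748 (plus), chr12:46266502-46266531 (minus) and chr13:29595663-29595692 (minus), in the order printed. Counted from the annotated start, the first base of the match is at position -7 in SLC1A4, -97 in SLC1A5, 38 in SLC3A2, -4 in SLC38A1 and 8 in SLC7A1. The starts used for SLC1A4, SLC1A5, SLC3A2 and SLC38A1 lie inside the annotated gene, downstream of its first base, and that of SLC7A1 is at its first base. No match was found in the windows of SLC7A5, SLC6A9, SLC38A2 and SLC43A1. A match describes letters only, and its absence says nothing about binding outside these windows.

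The windows were also searched for the core of the antioxidant response element bound by NRF2 (TGACNNNGC, both strands) and for the E-box of the MYC and TFE families (CACGTG, its own reverse complement). The first was found for 4 of the 9 genes (SLC1A5, SLC3A2, SLC7A1 and SLC7A5), against 16.1% of all genes, and in 4 of 16 windows, against 13.3% of all windows. The second was found for 3 of the 9 (SLC1A5, SLC43A1 and SLC7A5), against 8.77%, and in 3 of 16 windows, against 7.26%. No match of one motif overlapped a match of another in these windows. SLC7A5, the transporter with the highest level in LACTB cells, holds both, and they are shown for that reason together with the antioxidant element core of its partner SLC3A2.
SLC7A5 E-box: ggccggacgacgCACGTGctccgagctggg
SLC7A5 antioxidant core: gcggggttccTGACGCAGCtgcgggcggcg
SLC3A2 antioxidant core: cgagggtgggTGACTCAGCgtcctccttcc
They lie at chr16:87869620-87869649 (minus), chr16:87869490-87869519 (minus) and chr11:62881652-62881681 (plus), with the first base of the match at positions -130, -2 and -37.

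The libraries held 16978799 to 18395631 reads in genes. LACTB itself stood at 3.81, 3.39 and 4.71 FPKM in empty vector replicates 1 to 3 and at 173.9, 169.3 and 161.5 FPKM in LACTB replicates 1 to 3, so the libraries matched their labels. All 12 melanocyte markers examined lay under 1 FPKM in every library (MITF, PMEL and SOX10 among them, with OCA2 listed at 0), so the labelled cell type is not borne out by its defining RNAs. Summed, they reached 2.08 to 2.50 FPKM with empty vector and 2.54 to 2.83 FPKM with LACTB. Of the markers of other cell types, 5 of 5 for lymphocytes and macrophages (CD3E listed at 0) and 4 of 4 for fibroblasts (DCN listed at 0) were under 1 FPKM in every library. The endothelial markers summed to 47.6 to 52.4 against 13.9 to 14.7 FPKM and the epithelial markers to 156.4 to 165.9 against 143.0 to 146.9 FPKM, in each case with a single gene above 1 FPKM (CDH5 and KRT18). Their part in the results was not tested. In bulk RNA, fewer cells with a transcript and less of it per cell cannot be told apart. Whether replicates were separate cultures is not stated, so a p-value here speaks of the spread among these 6 libraries alone, which may be technical.

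The transporters were higher with LACTB, but unevenly. All 10 passed the filter of a mean of at least 1 FPKM. SLC6A9, at a mean of 0.623 FPKM with empty vector, passed only through the LACTB libraries. The counts and the median below include it, but its own rise lends them no support. Of the 10, 9 rose and none fell at an adjusted p under 0.05 (limma, Benjamini-Hochberg over all 11875 tested genes), where 14.8% of all tested genes rose and 17.2% fell. The tenth, SLC43A1, was not called. The 10 were chosen with earlier results of these data known, so this contrast with all tested genes is a description. The median log2 fold change was 1.21 for the 10 transporters and -0.01 for all tested genes. In each of the 10, the lowest LACTB library exceeded the highest empty vector library, as in 22.3% of tested genes, while 25.1% had the groups apart the other way. Of the transporters, 6 rose at least 2-fold by the ratio of mean FPKM (SLC7A11, SLC6A9, SLC7A5, SLC1A4, SLC3A2 and SLC1A5), which 1.4% of tested genes did. The other 4 had ratios from 1.13 to 1.26. Summed over the 10, the level went from 309.1 ± 10.1 to 624.6 ± 13.0 FPKM (SD, n = 3 each), 2.02-fold.

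**Figure D1:**
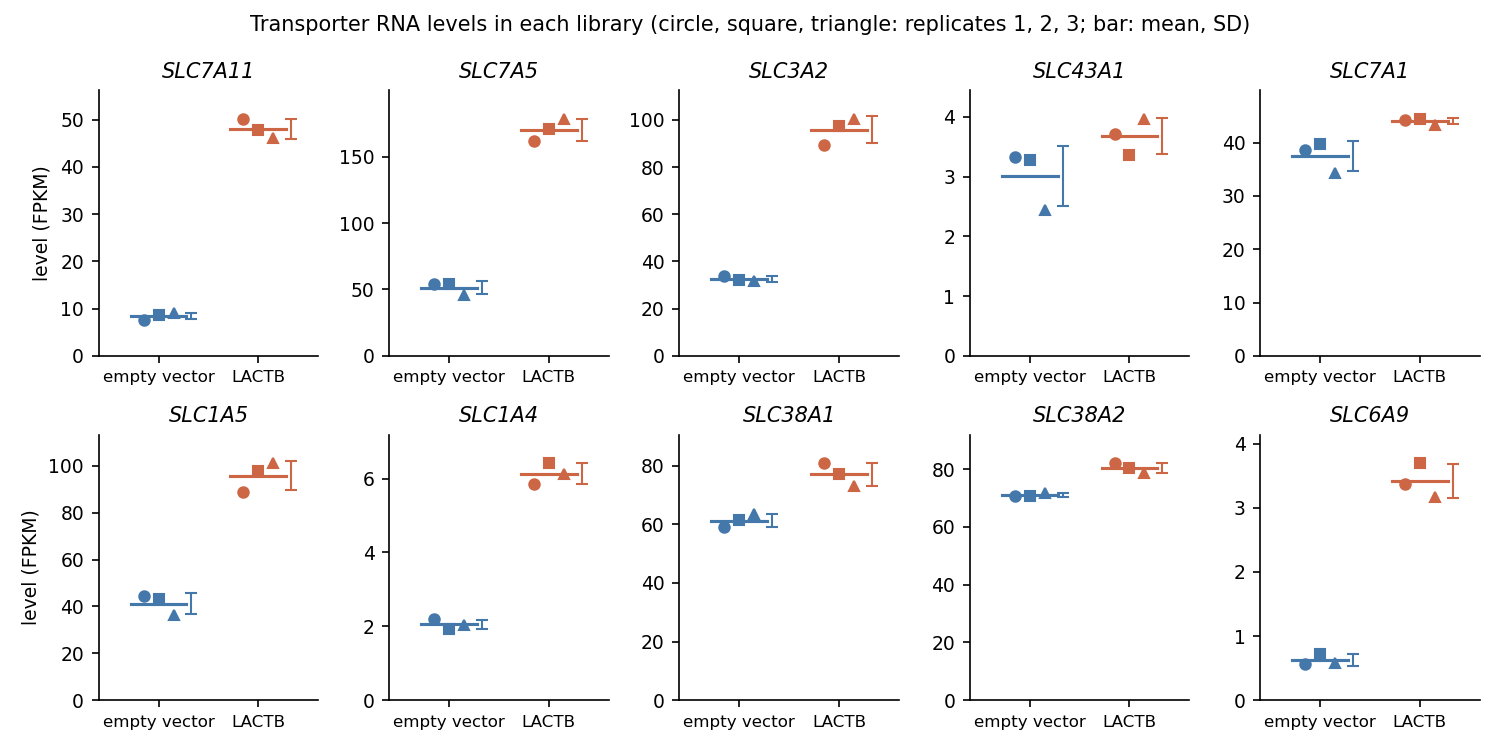
Level in FPKM (vertical axes from 0) of each transporter in the 3 empty vector (blue) and 3 LACTB (orange) libraries, with circle, square and triangle for replicates 1, 2 and 3, a bar for the mean and a bracket for the SD. SLC7A11, SLC7A5, SLC3A2, SLC1A5, SLC1A4 and SLC6A9 are at least 2-fold higher with LACTB, while in SLC43A1 the lowest LACTB library (3.36 FPKM) is barely above the highest empty vector library (3.33 FPKM).

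SLC7A11, the cystine importer (ENSG00000151012; GRCh38 chromosome 4, 138164097 to 138242349, minus strand), changed most of the 10. Its level was 7.70, 8.68 and 9.04 FPKM in empty vector replicates 1 to 3 and 50.2, 47.8 and 46.1 FPKM in LACTB replicates 1 to 3, from 1306 to 1572 and 7928 to 8761 reads. The lowest LACTB library was thus far above the highest empty vector library, and the ratio of means was 5.66. The log2 fold change was 2.37 with an SE of 0.063 (adjusted p = 2.93e-06 by limma), rank 6 from the top among 11875 tested genes. The overlapping antisense gene SLC7A11-AS1 reached at most 0.619 FPKM in any library.

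SLC7A5, the leucine exchanger (ENSG00000103257; chromosome 16, 87830023 to 87869488, minus strand), stood at 53.8, 54.3 and 45.5 FPKM with empty vector and 161.5, 170.8 and 178.4 FPKM with LACTB. The groups were well apart, with a ratio of means of 3.32 and a log2 fold change of 1.72 with an SE of 0.076 (adjusted p = 1.39e-05 by limma). It was the transporter with the highest level in LACTB cells, above 98.6% of tested genes.

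SLC3A2, the heavy chain that both exchangers need (ENSG00000168003; chromosome 11, 62856102 to 62888875, plus strand), rose with them. It stood at 34.0, 32.0 and 31.9 FPKM with empty vector and 89.3, 97.5 and 100.4 FPKM with LACTB. The ratio of means was 2.94 and the log2 fold change 1.53 with an SE of 0.055 (adjusted p = 6.86e-06 by limma). No other annotated gene overlaps SLC3A2 on either strand.

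The makeup of the light chains differed between the groups, with a higher share of SLC7A11 and a lower share of SLC7A6 with LACTB. The 6 light chains known to pair with SLC3A2 are SLC7A5, SLC7A6, SLC7A7, SLC7A8, SLC7A10 and SLC7A11, and their summed level went from 68.1 ± 5.14 to 226.0 ± 6.89 FPKM (SD, n = 3 each). SLC7A11 made up 11.04%, 12.01% and 14.5% of that sum in the empty vector libraries and 22.9%, 21.1% and 19.8% in the LACTB libraries. The share was higher in every LACTB library, by 8.76 percentage points on average (2-sided exact permutation test, p = 0.1, the smallest that 3 against 3 allows). The share of SLC7A5 was 75.1% ± 2.13 and 75.3% ± 1.47, with overlapping groups (exact permutation test, p = 0.9). The share of SLC7A6, an arginine and glutamine exchanger, went from 12.1% ± 0.559 to 3.33% ± 0.110 (exact permutation p = 0.1). SLC7A6 itself passed no threshold, at 7.99, 9.06 and 7.66 against 7.09, 7.46 and 8.03 FPKM (log2 fold change -0.11, 95% interval -0.28 to 0.05; adjusted p = 0.266 by limma), so its lower share went with the higher level of the other chains in the sum. SLC7A7 and SLC7A8 lay under 0.3 FPKM in every library, and SLC7A10 was listed at 0 in all 6. The summed light chains were 2.05, 2.26 and 1.96 times the SLC3A2 level with empty vector and 2.45, 2.32 and 2.32 times with LACTB. The exon length used for SLC3A2 is 5178 bases against 2222 in its longest transcript. For SLC7A5 these are 4745 and 4537, and for SLC7A11 both are 9645. The size of the ratio thus does not give an excess of light chains over the heavy chain. That ratio was higher in all 3 LACTB libraries (exact permutation p = 0.1), although both terms rose.

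**Figure D2:**
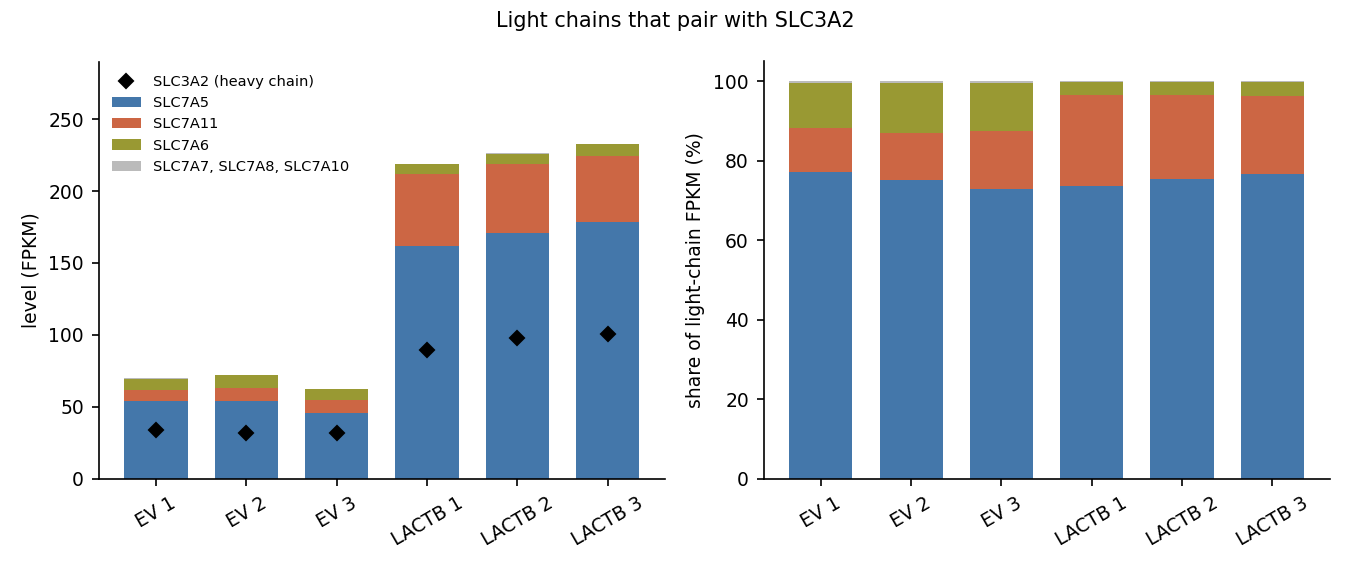
Left, FPKM of the light chains that pair with SLC3A2, stacked for each library (EV, empty vector), with SLC3A2 itself as a black diamond. Right, the same light chains as percent of their sum, in which SLC7A11 (orange) goes from 12.5% to 21.3% on average while SLC7A5 (blue) averages 75.1% and 75.3%.

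Another carrier of large neutral amino acids, SLC43A1 (ENSG00000149150; chromosome 11, 57484534 to 57515786, minus strand), was the transporter without a call. Its level was 3.33, 3.28 and 2.43 FPKM with empty vector and 3.72, 3.36 and 3.97 FPKM with LACTB, from 155 to 252 reads per library. The log2 fold change was 0.23 (95% interval -0.01 to 0.47; adjusted p = 0.137 by limma), so neither no change nor a rise of the size seen for SLC38A1 is outside the interval, whereas the changes of SLC7A5 and SLC7A11 are. With limma voom on the recovered reads it was called (adjusted p = 0.0421; 0.0421 to 0.313 over its alternatives).

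SLC1A5, the glutamine exchanger (ENSG00000105281; chromosome 19, 46774883 to 46788594, minus strand), and its paralogue SLC1A4 (ENSG00000115902; chromosome 2, 64988477 to 65023865, plus strand) both rose, from very different levels. SLC1A5 stood at 44.4, 43.1 and 36.3 FPKM with empty vector and 88.8, 97.8 and 101.2 FPKM with LACTB, a ratio of 2.33. SLC1A4, which exchanges alanine, serine and cysteine, stood at 2.19, 1.94 and 2.04 FPKM and 5.85, 6.42 and 6.13 FPKM, a ratio of 2.98. Neither pair of groups overlapped. The log2 fold changes were 1.201 with an SE of 0.085 (adjusted p = 0.000117 by limma) for SLC1A5 and 1.22 with an SE of 0.058 (adjusted p = 1.86e-05 by limma) for SLC1A4. Since the pseudocount of 1 FPKM weighs more on a low gene, the log2 fold change of SLC1A4 was 1.53 with a pseudocount of 0.1. SLC1A4 made up 4.77% ± 0.511 of the summed level of the pair with empty vector and 6.02% ± 0.264 with LACTB (exact permutation p = 0.1).

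The sodium-coupled carriers SLC38A1 (ENSG00000111371; chromosome 12, 46183063 to 46270017) and SLC38A2 (ENSG00000134294; chromosome 12, 46358189 to 46372867), both on the minus strand, had the highest levels of the 10 with empty vector and rose little. SLC38A1 stood at 59.0, 61.3 and 63.5 FPKM with empty vector and 80.9, 77.2 and 73.2 FPKM with LACTB (ratio 1.26; log2 fold change 0.33 with an SE of 0.051; adjusted p = 0.00364 by limma). SLC38A2, which is known to be induced by amino acid shortage in many cells, stood at 70.6, 70.9 and 71.8 FPKM and at 82.1, 80.5 and 78.6 FPKM. Its ratio was 1.13 and its log2 fold change 0.18 with an SE of 0.036 (adjusted p = 0.0112 by limma). The groups did not overlap in either gene. The call of SLC38A2 was lost without LACTB replicate 2 (adjusted p = 0.053), as TPM (0.0504) and with a replicate block (0.0667), against 0.0012 to 0.0667 over its alternatives. SLC38A2 made up 54.5%, 53.6% and 53.1% of the summed level of the pair with empty vector and 50.4%, 51.1% and 51.8% with LACTB, lower in each LACTB library (exact permutation p = 0.1).

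SLC7A1, the arginine and lysine carrier (ENSG00000139514; chromosome 13, 29509410 to 29595688, minus strand), stood at 38.5, 39.7 and 34.4 FPKM with empty vector and 44.2, 44.4 and 43.3 FPKM with LACTB. Its ratio was 1.17 and its log2 fold change 0.23 (95% interval 0.09 to 0.36; adjusted p = 0.0238 by limma). The call was lost without LACTB replicate 1 (adjusted p = 0.0623), 2 (0.08) or 3 (0.0581) and with no filter on low values (0.0704), against 0.000575 to 0.08 over its alternatives.

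SLC6A9, the glycine carrier (ENSG00000196517; chromosome 1, 43991500 to 44031467, minus strand), was the lowest of the 10 with empty vector and had the second highest ratio. Its level was 0.562, 0.726 and 0.581 FPKM with empty vector and 3.37, 3.70 and 3.17 FPKM with LACTB, from 51 to 68 and from 294 to 328 reads. The ratio was 5.48, while the log2 fold change was 1.44 with an SE of 0.081 (adjusted p = 4.27e-05 by limma), or 2.28 with a pseudocount of 0.1. It passed the filter only through the LACTB libraries, so its call, though included in the counts of transporters, lends them no support. Genes that overlap it reached at most 1.00 FPKM in any library.

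**Figure D3:**
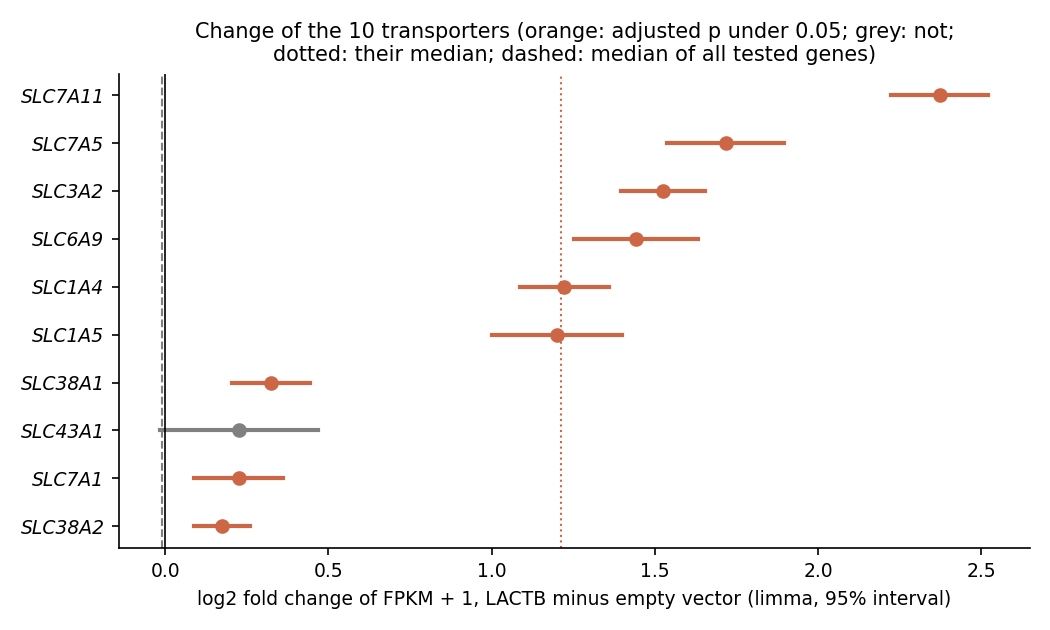
Log2 fold change of FPKM + 1 (horizontal axis, LACTB minus empty vector) of each transporter with its 95% limma interval. The 6 transporters at the top, from 1.201 to 2.37, have intervals that do not reach those of the 4 at the bottom, from 0.18 to 0.33, and the interval of SLC43A1 (grey) includes 0.

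The order of the transporters by level differed between the groups. With empty vector the order of mean FPKM was SLC38A2, SLC38A1, SLC7A5, SLC1A5, SLC7A1, SLC3A2, SLC7A11, SLC43A1, SLC1A4 and SLC6A9, and only the ranges of SLC1A5 and SLC7A1 overlapped among neighbours. With LACTB it was SLC7A5, SLC1A5, SLC3A2, SLC38A2, SLC38A1, SLC7A11, SLC7A1, SLC1A4, SLC43A1 and SLC6A9. There the ranges overlapped between SLC1A5 and SLC3A2, between SLC38A2 and SLC38A1, and between SLC43A1 and SLC6A9. SLC7A11 went from above 57.6% to above 93.1% of tested genes, and SLC1A4 from 17.9% to 47.6%, whereas SLC38A2 stayed at 95.7% and 96.3%.

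Within a group, the transporters did not all vary together, and the spread went partly with base composition. Empty vector replicate 3 was the lowest of its group for SLC7A5, SLC3A2, SLC7A1, SLC1A5 and SLC43A1, whose longest transcripts hold 52.7% to 61.3% G and C. It was the highest of its group for SLC7A11, SLC38A1 and SLC38A2, which hold 35.4% to 41.3%. SLC6A9 (59.6%) and SLC1A4 (46.5%) were neither lowest nor highest there. LACTB replicate 1 was likewise the lowest LACTB library for SLC7A5, SLC3A2, SLC1A5 and SLC1A4 (46.5% to 61.3%) and the highest for the same low-GC transporters, SLC7A11, SLC38A1 and SLC38A2. The pattern did not hold for the other 3, since SLC7A1 (52.7%) and SLC6A9 (59.6%) were lowest in LACTB replicate 3 and SLC43A1 (58.2%) in LACTB replicate 2. LACTB replicate 3 was also the lowest for SLC7A11, SLC38A1 and SLC38A2, and the highest for SLC7A5, SLC3A2, SLC1A5 and SLC43A1. Across 11872 tested genes of one library each, which share its depth and preparation, the deviation from the other libraries of the group correlated with GC content at r = -0.241 for empty vector replicate 3, -0.331 for LACTB replicate 1 and 0.272 for LACTB replicate 3. Empty vector replicate 3 also had the lowest share of reads from mitochondrially encoded genes, 3.61% against 4.65% to 5.62% in the other libraries. The part of these differences in the results was not tested beyond the fits named next. Between the groups, the low-GC SLC7A11 had a ratio of mean FPKM of 5.66, and the low-GC SLC38A1 and SLC38A2 had 1.26 and 1.13. Of the high-GC transporters, SLC7A5, SLC3A2, SLC1A5 and SLC6A9 had ratios from 2.33 to 5.48. The high-GC SLC7A1 and SLC43A1 had 1.17 and 1.22, and SLC1A4, between them in GC content, had 2.98. With the trends with GC and length removed from each library, 9 transporters rose, with log2 fold changes of the 10 from 0.18 to 2.40. Without empty vector replicate 3 also 9 rose.

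The other amino acid transporters that passed the filter went in both directions. Of 42 further carriers in the files, 13 passed the filter and 12 were listed at 0 in every library. Of the 13, 5 rose (SLC38A7, SLC6A15, PQLC2, SLC38A9 and SLC38A10), 2 fell and 6 were not called, with 0.17 as their median log2 fold change, beside 14.8% risen and 17.2% fallen among all tested genes. SLC38A7, a lysosomal glutamine carrier, stood at 3.29, 3.42 and 3.37 FPKM and at 4.72, 5.16 and 5.15 FPKM (a change of 0.46 on the log2 scale, adjusted p = 0.00096 by limma). SLC6A15, a neutral amino acid carrier best known from brain, went from 8.95 ± 0.437 to 12.0 ± 0.279 FPKM (a change of 0.38 on the log2 scale, adjusted p = 0.00135 by limma). PQLC2, the lysosomal exporter of cationic amino acids, went from 4.79 ± 0.843 to 6.45 ± 0.0839 FPKM. SLC6A6, the taurine carrier, fell from 26.7 ± 1.085 to 22.8 ± 0.117 FPKM (a change of -0.22 on the log2 scale, adjusted p = 0.00764 by limma), and SLC36A4, a proline and tryptophan carrier, from 4.67 ± 0.269 to 3.94 ± 0.0772 FPKM. SLC38A7, SLC6A15, PQLC2, SLC6A6 and SLC36A4 were picked among called genes with groups that did not overlap, so their lack of overlap is no result. The counts rest on small changes: 3 rose without empty vector replicate 1, and 2 without empty vector replicate 2, LACTB replicate 2 or LACTB replicate 3, while 1 fell without empty vector replicate 3 or any 1 LACTB library. SLC38A10 lost its call without any 1 library other than LACTB replicate 1 (adjusted p = 0.0525 to 0.121 by limma). PQLC2 lost its call without empty vector replicate 2 or any 1 LACTB library (adjusted p = 0.0666 by limma to 0.0753), and SLC36A4 without empty vector replicate 2 or 3 or any 1 LACTB library (0.0635 to 0.096).

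**Figure D4:**
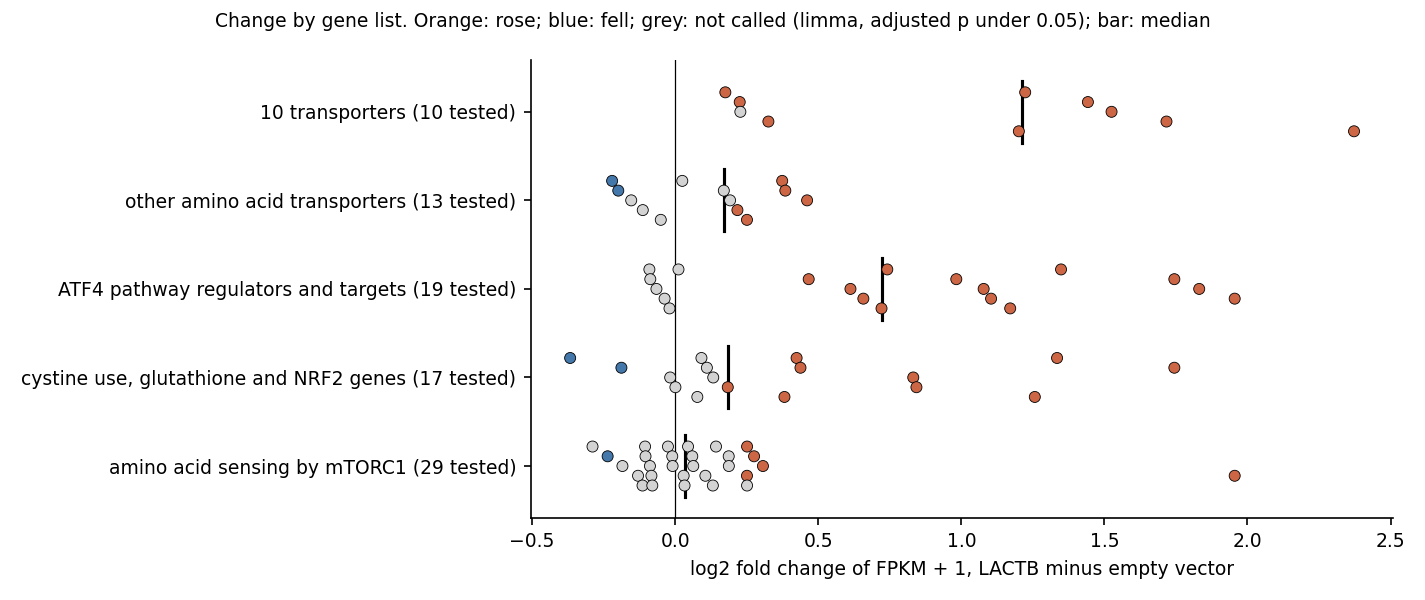
Log2 fold change of FPKM + 1 (horizontal axis, LACTB minus empty vector) of every tested gene in the 10 transporters and in 4 other lists, with a bar at each median and dots spread vertically for legibility. The medians are 1.21, 0.17, 0.72, 0.18 and 0.03 from top to bottom; SESN2 is the far right dot of the lowest row.

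Most tested genes of the ATF4 pathway rose with LACTB. Of 19 tested regulators and targets, 13 rose, none fell and 6 were not called, with a median log2 fold change of 0.72, beside 14.8% risen and 17.2% fallen of all tested genes. The list was chosen with earlier results of these data known, so the contrast is a description. ATF4 stood at 161.9, 154.9 and 161.5 FPKM with empty vector and at 255.1, 263.2 and 272.2 FPKM with LACTB (a change of 0.72 on the log2 scale, adjusted p = 6.57e-05 by limma). The stress sensor SESN2 went from 7.86 ± 0.942 to 33.2 ± 0.901 FPKM, DDIT4, an inhibitor of mTORC1 signalling, from 4.51 ± 0.152 to 18.7 ± 2.33 FPKM, and CHAC1, which degrades glutathione, from 2.50 ± 0.152 to 10.8 ± 1.251 FPKM. The 4 kinases that act upstream through eIF2, EIF2AK1 to EIF2AK4, were among the genes not called, as was EIF2S1, which encodes the alpha subunit of eIF2 itself.

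In the list of cystine use, glutathione and NRF2 genes, the enzymes of glutathione and thioredoxin metabolism GCLC, GCLM, GSR, TXNRD1 and TXN rose, as did HMOX1, NQO1, OSGIN1 and CHAC1. HMOX1 went only from 8.82 ± 0.207 to 10.2 ± 0.620 FPKM (adjusted p = 0.0338 by limma). The call of HMOX1 was lost without any 1 library other than LACTB replicate 1 (0.059 to 0.0951). Of 17 tested members, 9 rose, 2 fell and 6 were not called, with a median log2 fold change of 0.18, where 14.8% of all tested genes rose and 17.2% fell. This list, too, was chosen with earlier results of these data known. GSS, which makes glutathione, and SRXN1, a textbook NRF2 target, were among those not called. NQO1, a quinone reductase and textbook NRF2 target, went from 64.0 ± 0.883 to 162.8 ± 3.30 FPKM, and OSGIN1, another such target, from 2.29 ± 0.169 to 6.87 ± 0.608 FPKM. NFE2L2, which encodes NRF2, was not called, at 14.35, 14.98 and 14.41 against 15.4, 15.8 and 15.6 FPKM. Its groups did not overlap, with LACTB above, as in 22.3% of tested genes. The log2 fold change was 0.09 (95% interval 0.00075 to 0.183, adjusted p = 0.116 by limma). BACH1, a repressor at the same elements, fell from 14.3 ± 0.652 to 10.9 ± 0.618 FPKM (adjusted p = 0.00303 by limma). GPX4, the glutathione peroxidase that reduces lipid peroxides, went from 41.9 ± 0.993 to 36.7 ± 2.62 FPKM (adjusted p = 0.0428 by limma). Its call was lost without any 1 of the 6 libraries (0.0603 to 0.0959), so that 1 gene of the list fell in each of these fits.

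Most tested genes through which mTORC1 senses amino acids were not called. Of 29 tested members, 5 rose, 1 fell and 23 were not called, with a median log2 fold change of 0.03. The share that rose is near the 14.8% of all tested genes, so the count of risen genes is no result about the list. The 1 that fell, beside 17.2% of all tested genes, is given as a description. Those that rose were SESN2, the leucine sensor of the pathway already named, the lysosomal carrier SLC38A9, the GTPase gene RRAGC, its activator FLCN and the scaffold gene LAMTOR3. The call of SLC38A9 was lost without empty vector replicate 1 or 2 or LACTB replicate 2 or 3 (adjusted p = 0.0516 to 0.0866 by limma), and that of LAMTOR3 without empty vector replicate 1 or 2 or LACTB replicate 1 or 3 (0.0813 to 0.105). RRAGC went from 3.35 ± 0.123 to 4.38 ± 0.134 FPKM and FLCN from 2.54 ± 0.156 to 3.29 ± 0.125 FPKM (adjusted p = 0.00471 and 0.0134 by limma). BMT2, which encodes a sensor of S-adenosylmethionine, went from 2.18 ± 0.089 to 1.70 ± 0.062 FPKM (adjusted p = 0.0281 by limma), a call lost without any 1 of the 6 libraries (0.0527 to 0.0928), so that none fell in those fits. The number that rose was 3 without empty vector replicate 2 or LACTB replicate 3.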

How the data were processed

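RNA-seq libraries of MUM2B cells were compared, 3 with empty vector and 3 with LACTB. The labels gave the groups and the replicate numbers. Each of the 6 deposited files lists FPKM, computed by the authors, for 58735 genes by symbol and Ensembl ID. The submitters' processing notes name the build GRCh38 (hg38) and, without their roles, DESeq2 1.16.1, featureCounts 1.5.0-p3 and HISAT2 2.0.5. No source used here gives the use of strand or the treatment of multi-mapping reads, so reads of overlapping or near-identical genes cannot be told apart with certainty.

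Coordinates and exon lengths came from GENCODE 29, which matched all gene IDs. FPKM times exon length gave whole reads for 100% of values above 0 (tolerance 0.1 reads), from which depth was recovered. Same-group libraries differed beyond sampling noise (chi-square over degrees of freedom from 2.02 to 12.4), and each counted as 1 sample.

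The 11875 genes averaging 1 FPKM or more were tested with limma 3.58.1 in R 4.3.3 on log2(FPKM + 1) with a variance trend and Benjamini-Hochberg adjustment over all of them. Such fold changes understate the change of low genes. Ratios are of mean FPKM. Shares were compared by exact permutation tests (scipy 1.17.1). Named were all 10 transporters, LACTB, ATF4, NFE2L2, up to 3 risen and 3 fallen genes of each list by size of change among those called whose groups did not overlap, and the 5 genes nearest to SLC7A11 in profile. Other risen members of the lists, and members not called, were named after their values were seen. The transporters and lists were chosen with earlier results of these data known, so their counts beside those of all tested genes are descriptions. GC content is that of the longest transcript. Promoter sequences are from RefSeq. Alternatives are given in the closing section.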

Additional observations from a re-analysis of the deposited data

How the results depend on the processing

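The number of transporters that rose was 7 to 10 over 19 alternatives, and none fell in any. SLC7A11, SLC7A5, SLC3A2, SLC1A4, SLC1A5, SLC38A1 and SLC6A9 kept their call wherever they were tested (SLC1A4, SLC6A9 and SLC43A1 were not at a mean of at least 5 FPKM). Deviations of same-numbered libraries correlated at -0.126, 0.0194 and -0.0438, and those of other pairs at -0.0601 to 0.1085. These values cannot show whether same-numbered libraries were prepared together. With a replicate block 1155 genes rose and 1324 fell, against 1758 and 2038, and 8 transporters rose. In total 1155 genes rose at a mean of at least 5 FPKM, 1295 fell as TPM, and 847 rose and 1004 fell with the adjusted p held under 0.01. Without single libraries, 1132 (without LACTB replicate 2) to 1495 genes rose and 1392 to 1810 fell. The limma fit had 5029 genes at an unadjusted p under 0.05.

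Of the other transporters, 2 rose and 1 fell without a filter, 3 and 1 at a mean of at least 5 FPKM, 3 and 1 with the replicate block, and 2 and 1 at an adjusted p under 0.01, while 1 fell as TPM. Without single libraries 2 to 4 rose and 1 to 2 fell. Of the cystine and NRF2 list, 1 fell without a filter, as TPM, after quantile normalization, without the variance trend, with the replicate block, with voom, at an adjusted p under 0.01 and without any 1 library. Of the mTORC1 list, 3 rose and 0 fell without a filter, 2 and 0 at a mean of at least 5 FPKM, 3 and 0 with the replicate block, 2 and 0 at an adjusted p under 0.01, 9 rose with voom, 8 rose with GC and length trends removed (chosen after seeing the data), 0 fell as TPM and 2 fell among protein-coding genes only. Without single libraries 3 to 5 rose and 0 fell. On reads not divided by length, the SLC7A11 share differed by 13.7 percentage points and the SLC1A4 share by 2.31, against 8.76 and 1.24, where SLC7A11 and SLC1A4 have longer exons than SLC7A5 and SLC1A5. Without single libraries the differences were 7.94 to 9.75, 1.01 to 1.52 and, for the SLC38A2 share, -3.00 to -2.26. Where no cause is shown, the cause was not tested. The fewest reads lay behind SLC6A9 (51 to 328) and SLC43A1 (155 to 252).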

Other observations

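Outside the 10 transporters, the genes whose centred log2(FPKM + 1) profile over the 6 libraries lay nearest to that of SLC7A11, among genes averaging 5 FPKM or more (6979 beside SLC7A11 itself), were CXCL8 (root mean square distance 0.051), SERPINB2 (0.159), ADM2 (0.161), CXCL1 (0.189) and IGFN1 (0.224). The chemokine gene CXCL8 stood at 6.55, 7.22 and 8.49 FPKM with empty vector and 43.8, 40.9 and 39.5 FPKM with LACTB, beside means of 8.48 and 48.0 FPKM for SLC7A11. SERPINB2, ADM2 and IGFN1 had means of 1.34, 1.46 and 2.20 FPKM with empty vector. They thus met the mean of 5 FPKM only through the LACTB libraries. Likeness here rests on 6 libraries and mainly on the size of the difference between the groups.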
